A study of Homo sapiens with 6 samples.

Results

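Macroautophagy genes were followed in mitotic IMR90 cells with and without an active H-Ras oncogene. The members were a named list of 41 genes covering the steps of autophagosome formation. The list was drawn up by gene function, with earlier results of these data known. Of the 63009 genes read from the expression table, 40 carried a member's symbol, and the remaining one, ATG101, was listed under the older symbol C12orf44. ATG101 is therefore described with its partners but stands outside the expression counts, which refer to the 40 genes matched by symbol. The promoter counts include it. IMR90 is a diploid human fibroblast line from fetal lung. Both groups were IMR90 cells that stably expressed H-RasV12 fused to an estrogen receptor domain (ERRAS cells), so that the oncoprotein becomes active only when tamoxifen is added. The control mitotic cells were uninduced (3 libraries), and the Ras-induced mitotic cells had received tamoxifen for 4 days, at 100 nM per the labels (3 libraries). Both groups were treated with 1 µM dimethylenastron (DME), an inhibitor of the mitotic kinesin Eg5, and detached mitotic cells were collected for RNA sequencing of polyadenylated transcripts. All values therefore come from drug-arrested mitotic cells carrying a construct that the controls carry too.

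Autophagy encloses cytoplasm in a double membrane and delivers it to the lysosome. The ULK kinase complex starts the process, a class III PI3-kinase complex marks the forming membrane with a phosphoinositide that WIPI proteins bind, and 2 ubiquitin-like conjugation reactions attach ATG8 proteins (the LC3 and GABARAP families) to membrane lipid. Cargo receptors such as SQSTM1 (p62) bind ubiquitinated material on one side and ATG8 proteins on the other, and some are themselves degraded with their cargo, so transcript levels do not measure autophagic flux. In fibroblasts, sustained Ras activity is a well-known inducer of senescence, a state in which autophagy has often been studied.

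Transcript levels were given as FPKM, read fragments scaled to the length of the transcript and to the number mapped in the library, a scale that allows genes of different length to be compared. A gene is called altered where limma gave an adjusted p of 0.05 or less (Benjamini-Hochberg). The fit used log2(FPKM + 1) of all 13993 genes averaging 1 FPKM or more. Differences are written as Ras-induced over control on that log2 scale, and for low values they come out smaller than the ratio of the FPKM. The files used here give no read counts, so absolute depth is not given. The steps between low FPKM values placed the relative depth of the libraries between 0.853 and 1.17 of that of control library 1. HRAS, whose reads come from the endogenous gene or the construct, had 1174, 1176 and 1140 FPKM in the control libraries and 1439, 1847 and 1473 FPKM in the Ras-induced libraries. The 6 fibroblast markers were all detected, at control means of 70.0 to 2149 FPKM, although 2 of the 6 fell and 4 of the 6 lay entirely below the controls, with a median difference of −1.22. They summed to between 4642 and 5243 FPKM in the control and to between 3010 and 4239 FPKM in the Ras-induced libraries. Of 8 epithelial, endothelial and leukocyte markers, PECAM1 and CD3E were at 0 in every library and CDH5 and PTPRC at or under 0.1 FPKM, while the summed list gave 9.83 to 19.7 FPKM in the control and 11.5 to 12.6 FPKM in the Ras-induced libraries, mainly from KRT5. The 6 mitotic markers summed to between 1489 and 1533 FPKM in the control libraries and to between 1231 and 1367 FPKM in the Ras-induced libraries. Of the 6, 2 fell and 5 lay entirely below the controls, with a median difference of −0.23. The part of these differences in the results on autophagy genes was not tested, and in such bulk samples fewer cells of a kind and less RNA per cell cannot be told apart.

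All 40 autophagy genes were expressed above the filter. Their median level was 26.8 FPKM, against 13.0 FPKM over all tested genes. Between Ras-induced and control cells 10 of the 40 (25%) were altered, where 16.7% of all tested genes were. The shares were close to each other when control library 1 was left out (7.5% of the members and 8.07% of all tested genes) and when Ras-induced library 3 was left out (7.5% and 7.15%). WIPI1, ULK3, SQSTM1, GABARAPL2, MAP1LC3B, ATG4A and ATG7 rose, whereas MAP1LC3A, ULK2 and OPTN fell. The 7 that rose made up 17.5% of the members against 11.0% of all tested genes, and the 3 that fell made up 7.5% against 5.67%. The 3 Ras-induced libraries lay entirely above the 3 control libraries for 21 members (52.5%, against 27.1% of all tested genes) and entirely below for 4 (10%, against 12.8%), so that 62.5% of the members and 39.9% of all tested genes did not overlap. Only WIPI1 and MAP1LC3A passed the test with a change of at least 1 on the log2 scale, where 3.92% of all tested genes did. The median difference of the 40 genes was 0.19, against 0.10 over all tested genes, and 25 of the 40 lay above that all-gene median. The shift of all genes depends on the scaling of the libraries, because it became 0.01 after quantile normalization, and 6 members were then altered, where 15.4% of all tested genes were. Under that scaling WIPI1, ULK3 and GABARAPL2 rose (7.46% of all tested genes did) and MAP1LC3A, ULK2 and OPTN fell (7.93% did). After upper-quartile scaling SQSTM1 was altered as well (adjusted p = 0.0491 with limma), making 4 higher and 3 lower, where 14.5% of all tested genes were altered, 6.58% higher and 7.87% lower.

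**Figure D1:**
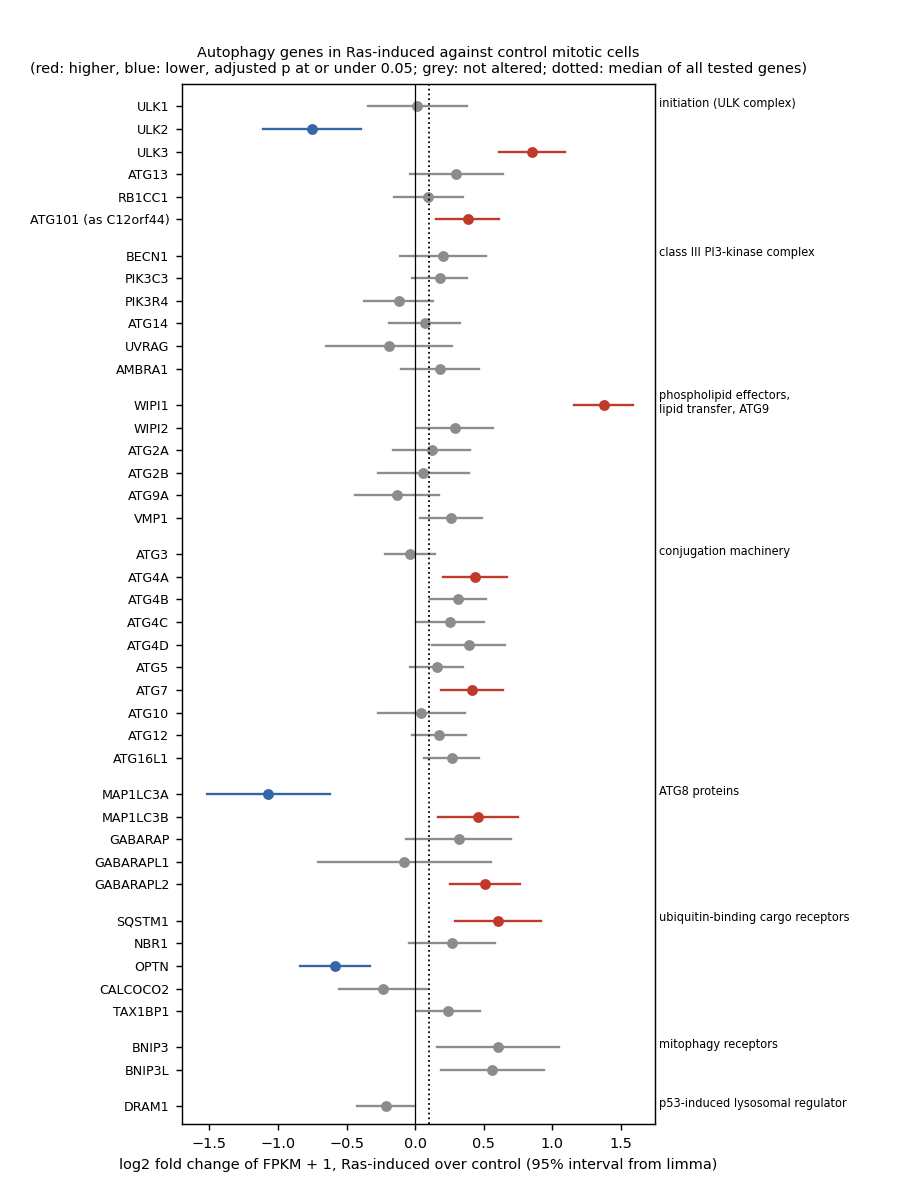
Difference of each of the 41 autophagy genes between Ras-induced and control mitotic cells, as log2 fold change of FPKM + 1 on the x axis with 95% confidence intervals from limma, grouped by role. Red (higher) and blue (lower) points have an adjusted p at or under 0.05, grey points do not, and the dotted line is the all-gene median of 0.10. WIPI1 at 1.37 and MAP1LC3A at −1.07 stand at the ends, and the 6 genes of the class III PI3-kinase complex lie between −0.19 and 0.20.

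The promoters of 3 members are given as examples, picked with the values known, and do not stand for the list. WIPI1 and ULK3 had the largest increases among the altered members, and BNIP3, which was not altered, was the highest of the mitophagy receptors. Each is the RefSeq promoter on GRCh38.p14, running 5′ to 3′ on the gene's strand from 250 bases before the transcription start to 50 bases after it. Capitals mark CACGTG, the E-box at the centre of the CLEAR element bound by TFEB and TFE3, and TGACNNNGC, the core of the antioxidant response element.
WIPI1 (chr17:68457447-68457746, minus strand): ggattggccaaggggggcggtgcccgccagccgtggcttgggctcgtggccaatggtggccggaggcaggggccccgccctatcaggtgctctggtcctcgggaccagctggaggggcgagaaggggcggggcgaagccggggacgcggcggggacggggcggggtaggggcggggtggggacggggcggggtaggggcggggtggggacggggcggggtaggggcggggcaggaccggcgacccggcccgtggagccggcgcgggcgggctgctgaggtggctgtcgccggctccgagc
ULK3 (chr15:74843107-74843406, minus strand): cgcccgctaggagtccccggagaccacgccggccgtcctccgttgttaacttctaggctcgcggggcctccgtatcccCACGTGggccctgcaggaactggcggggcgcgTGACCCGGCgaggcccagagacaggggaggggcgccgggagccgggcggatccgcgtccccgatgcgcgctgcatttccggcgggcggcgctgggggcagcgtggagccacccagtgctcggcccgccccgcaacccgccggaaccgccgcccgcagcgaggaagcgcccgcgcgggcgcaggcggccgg
BNIP3 (chr10:131981874-131982173, minus strand): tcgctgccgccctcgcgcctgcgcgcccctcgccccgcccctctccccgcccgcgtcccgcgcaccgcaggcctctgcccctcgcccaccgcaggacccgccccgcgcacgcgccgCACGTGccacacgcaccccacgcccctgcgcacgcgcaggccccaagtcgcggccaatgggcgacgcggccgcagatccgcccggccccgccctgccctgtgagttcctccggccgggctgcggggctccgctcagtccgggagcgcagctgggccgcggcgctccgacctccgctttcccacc
Counted from the transcription start, ULK3 held a CACGTG at −172 and the antioxidant core TGACCCGGC at −140, BNIP3 held a CACGTG at −134, and the WIPI1 window held neither motif. Both strands were searched in 44 promoter windows of the 36 members with an entry, ATG101 included, and in 35116 windows over all genes. CACGTG was in 4 of the 44 (9.09%: ULK3, BNIP3, ATG14 and ATG3), against 7.26% of all windows. The antioxidant core was also in 4 of the 44 (9.09%: ULK3, MAP1LC3B, CALCOCO2 and ATG101), against 13.3% of all windows. The AP-1 motif TGANTCA was in 0 of the 44 and in 7.71% of all windows. ACGTG, the core of the hypoxia response element, which is also contained in CACGTG, was in 14 of the 44 (31.8%) and in 21.4% of all windows. These matches describe the letters in the window and are not sites of binding. No entry was given for ATG4D, MAP1LC3A, RB1CC1, BNIP3L and UVRAG.

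Among the initiation genes ULK3 rose, ULK2 fell and ULK1 was not altered. ULK3, a kinase of the ULK1 family also known for a part in Hedgehog signalling (chr15:75128459-75135687 on GRCh37, minus strand), had 5.44, 6.10 and 6.54 FPKM in the control and 12.3, 11.3 and 11.4 FPKM in the Ras-induced libraries. Every Ras-induced library lay above every control library. The mean rose from 6.02 ± 0.556 to 11.7 ± 0.549 FPKM (SD, n = 3 each), a log2 difference of 0.85 (95% interval 0.61 to 1.09, adjusted p = 0.00451 with limma). ULK2, a close relative of ULK1 that can act in its place (chr17:19674142-19771249, minus strand), went the other way, with 5.93, 5.39 and 6.995 FPKM in the control and 3.61, 3.41 and 2.63 FPKM in the Ras-induced libraries. Its groups did not overlap either. The mean fell from 6.11 ± 0.815 to 3.22 ± 0.520 FPKM (log2 difference −0.75, interval −1.11 to −0.40, adjusted p = 0.0199 with limma). The ULK2 call was lost when control library 1, control library 3 or Ras-induced library 3 was left out, with adjusted p reaching 0.0636, and without the filter on low values (0.0552). Within a library the 2 kinases were about equally abundant in control cells (ULK3 over ULK2, 0.994 ± 0.118) and ULK3 was in excess in Ras-induced cells (3.68 ± 0.579). This ratio and the others below set genes side by side after their values were seen, so they restate the levels already given and have no test.

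ULK1 itself, the kinase most closely tied to starvation-induced autophagy, had 16.4, 13.6 and 11.5 FPKM in the control and 15.5, 14.3 and 12.01 FPKM in the Ras-induced libraries. The ranges overlapped and the interval of the difference ran from −0.35 to 0.38. Its scaffold partners were not altered either: ATG13 had a log2 difference of 0.30 (adjusted p = 0.195 with limma) and RB1CC1 (FIP200) of 0.10 (adjusted p = 0.556 with limma). ATG101, which stabilises ATG13 and was the most abundant gene of the complex (chr12:52463030-52471279, plus strand), had 35.1, 31.1 and 28.4 FPKM in the control and 42.1, 42.3 and 39.5 FPKM in the Ras-induced libraries. The groups did not overlap, and with a log2 difference of 0.38 (interval 0.15 to 0.61, adjusted p = 0.0416 with limma) it would bring the altered genes to 11 of 41. That call was lost in 9 of 13 alternatives, with an adjusted p of up to 0.118 when control library 2 was left out. Of the 50-base windows of its longest coding transcript, 41.0% also occur in an overlapping gene, RP11-1100L3.7, for which the table listed a similar difference of 0.45.

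The class III PI3-kinase complex, which makes the phosphoinositide that WIPI proteins bind, was the group with the smallest differences. None of its 6 genes was altered by limma (16.7% of all tested genes were), and none had an unadjusted p under 0.05 (33.6% did). Differences ran from −0.19 for UVRAG, the endosomal counterpart of ATG14, to 0.20 for BECN1 (Beclin 1), the regulatory core of the complex. BECN1 was the most abundant, with 61.2, 48.9 and 43.7 FPKM in the control and 62.9, 57.4 and 55.8 FPKM in the Ras-induced libraries, and its groups overlapped. The catalytic subunit PIK3C3 (VPS34) went from 39.3 ± 2.61 to 44.6 ± 2.64 FPKM (log2 difference 0.18, interval −0.03 to 0.38). The pseudokinase PIK3R4 (VPS15) had a difference of −0.12, ATG14 of 0.07 and AMBRA1, which binds Beclin 1, of 0.18. BECN1 shares 36.3% of the sequence windows of its longest coding transcript with CNTD1, and ATG14 shares 20.5% with FBXO34. The effect on their levels was not tested.

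WIPI1, one of the proteins that read the PI3-phosphate mark and bring in the conjugation machinery, had the largest change of all members (chr17:66417089-66453654, minus strand). It had 26.3, 27.3 and 24.99 FPKM in the control and 76.7, 64.0 and 68.1 FPKM in the Ras-induced libraries. The control libraries were close together, and the lowest Ras-induced library was far above the highest of them. The mean rose 2.66-fold, from 26.2 ± 1.17 to 69.6 ± 6.46 FPKM (SD, n = 3 each), with a log2 difference of 1.37 (interval 1.16 to 1.59, adjusted p = 0.00126 with limma). WIPI1 and ULK3 were the members altered in all 13 alternatives, with adjusted p of at most 0.00795 and 0.0236 when a library was left out. Part of the WIPI1 transcript, 26.4% of its 50-base windows, overlaps ARSG, a sulfatase gene on the opposite strand, and the library kit does not mark the strand. ARSG was listed at no more than 2.15 FPKM in any library, with a log2 difference of 0.82.

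Its relative WIPI2, which recruits ATG16L1, had 33.9, 32.7 and 25.6 FPKM in the control and 37.01, 38.2 and 37.6 FPKM in the Ras-induced libraries (log2 difference 0.29, adjusted p = 0.132 with limma). WIPI2 was therefore the more abundant of the 2 in control cells (WIPI1 over WIPI2, 0.861 ± 0.103) and WIPI1 in Ras-induced cells (1.85 ± 0.202). The 4 other genes of this group were not altered. VMP1, an endoplasmic reticulum protein that mobilises lipid for the growing membrane and the most abundant gene here, had 71.97, 60.3 and 69.7 FPKM in the control and 80.2, 76.5 and 85.7 FPKM in the Ras-induced libraries (log2 difference 0.26, adjusted p = 0.104 with limma). Differences were 0.12 and 0.06 for the lipid transfer proteins ATG2A and ATG2B and −0.13 for the scramblase ATG9A. ATG9A shares 44.8% of the sequence windows of its longest coding transcript with another annotated gene. The effect on its level was not tested.

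Of the 10 genes of the conjugation machinery, 2 rose and 0 fell (11.0% and 5.67% of all tested genes did). In 8 of the 10 every Ras-induced library lay above every control library, which held for 27.1% of all tested genes, and the group's median difference was 0.26 (0.10 over all genes), but only ATG4A and ATG7 were altered. After quantile or upper-quartile scaling the median was 0.16, with 8 of the 10 differences above 0. ATG4A, a protease that trims ATG8 proteins before lipidation and releases them afterwards (chrX:107334898-107397901, plus strand), had 9.18, 9.07 and 8.24 FPKM in the control and 11.9997, 13.4 and 11.5 FPKM in the Ras-induced libraries. Its mean rose from 8.83 ± 0.517 to 12.3 ± 0.999 FPKM (log2 difference 0.44, interval 0.20 to 0.67, adjusted p = 0.0292 with limma). ATG7, the activating enzyme shared by both conjugation reactions (chr3:11313995-11599139, plus strand), had 26.3, 28.4 and 28.9 FPKM in the control and 33.7, 40.4 and 38.8 FPKM in the Ras-induced libraries. It rose from 27.9 ± 1.40 to 37.6 ± 3.52 FPKM (log2 difference 0.42, interval 0.19 to 0.64, adjusted p = 0.0309 with limma). Neither call was firm: ATG4A was no longer altered with any single library left out (adjusted p up to 0.0856), ATG7 reached 0.105 without Ras-induced library 3, and both were lost after quantile normalization (0.0695 and 0.0951) and upper-quartile scaling (0.0554 and 0.0861).

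The other ATG4 proteases did not pass the test. ATG4B had a difference of 0.31 and ATG4D of 0.39, with adjusted p just above the threshold (0.0538 and 0.0569 with limma), while ATG4C had a difference of 0.25 (adjusted p = 0.141 with limma). ATG4D shares 14.9% of the sequence windows of its longest coding transcript with KRI1. Of the complex that directs ATG8 lipidation, ATG16L1 had a difference of 0.26 (adjusted p = 0.0788 with limma) and ATG5 of 0.16 (0.228). ATG12, the ubiquitin-like partner of ATG5 and the most abundant gene of the group, had 76.3, 75.6 and 68.4 FPKM in the control and 78.3, 82.4 and 88.4 FPKM in the Ras-induced libraries, with a difference of 0.18. The libraries of the groups overlapped for the conjugating enzymes. ATG3, which transfers ATG8 proteins to lipid, had a difference of −0.04 (interval −0.22 to 0.15) and ATG10, which acts on ATG12, of 0.04 (interval −0.27 to 0.36).

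**Figure D2:**
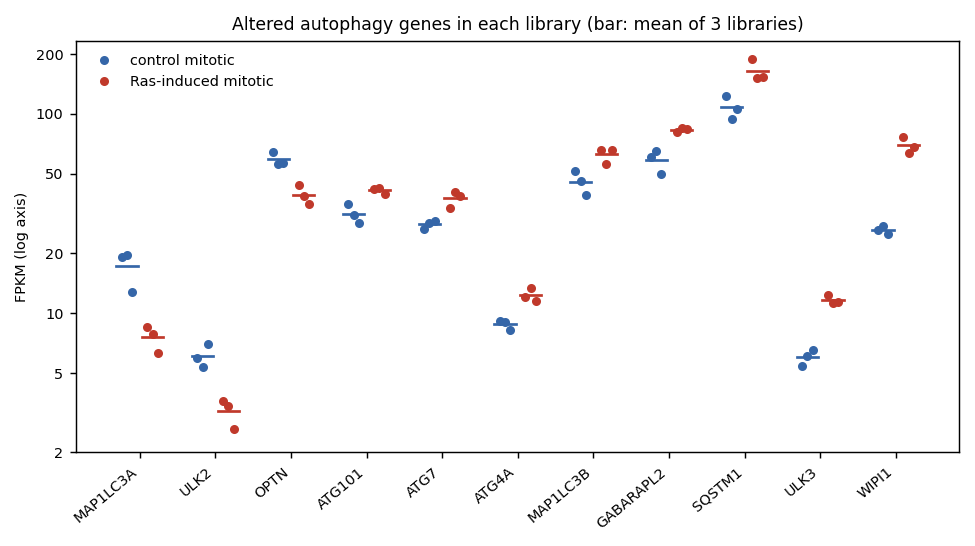
FPKM of each altered autophagy gene, ATG101 included, in each library on a log axis, with control mitotic (blue) and Ras-induced mitotic (red) libraries side by side and a bar at each group's mean. For each of these genes the 3 libraries of one group lie apart from the 3 of the other, from WIPI1 with control libraries of 24.99 to 27.3 FPKM and Ras-induced libraries of 64.0 to 76.7 FPKM to OPTN, where the Ras-induced libraries are lower at 35.1 to 43.8 FPKM.

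Of the 5 ATG8 genes, 2 rose (MAP1LC3B and GABARAPL2), 1 fell (MAP1LC3A) and 2 were not altered, where 11.0% of all tested genes rose and 5.67% fell. MAP1LC3A (LC3A, chr20:33134658-33148149, plus strand) had 19.2, 19.7 and 12.8 FPKM in the control and 8.51, 7.90 and 6.32 FPKM in the Ras-induced libraries. The groups did not overlap, although control library 3 was well below the other two. The mean fell from 17.2 ± 3.85 to 7.58 ± 1.13 FPKM (log2 difference −1.07, interval −1.52 to −0.62, adjusted p = 0.0142 with limma). The call was lost when control library 1 or control library 2 was left out (adjusted p up to 0.052). MAP1LC3B (LC3B, the member used most as a marker of autophagosomes, chr16:87417559-87438385, plus strand) had 51.7, 45.9 and 39.4 FPKM in the control and 66.3, 56.1 and 66.3 FPKM in the Ras-induced libraries. It rose from 45.7 ± 6.19 to 62.9 ± 5.85 FPKM (log2 difference 0.46, interval 0.16 to 0.75). With an adjusted p of 0.0496 in limma it was at the threshold, and it remained altered in 2 of 13 alternatives, with values of up to 0.147 without Ras-induced library 3. Its near copy MAP1LC3B2, which shares 12.4% of the 50-base windows of MAP1LC3B, was listed with a difference of 0.47, so reads of these genes may be split between them.

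GABARAPL2 (GATE-16, chr16:75600273-75611779, plus strand) was the GABARAP-family gene that rose, with 60.8, 65.1 and 50.1 FPKM in the control and 81.1, 84.7 and 84.2 FPKM in the Ras-induced libraries. Its mean went from 58.7 ± 7.72 to 83.3 ± 1.90 FPKM (log2 difference 0.51, interval 0.25 to 0.76, adjusted p = 0.0247 with limma). It was altered under both other scalings (0.0287 and 0.0376) but lost the call in 4 of the 6 leave-outs (without control library 1 or any one Ras-induced library, adjusted p up to 0.0834) and without the filter on low values (0.0564). GABARAP, the most abundant ATG8 gene over all 6 libraries (GABARAPL2 was slightly higher in the Ras-induced ones), had 62.2, 61.4 and 70.7 FPKM in the control and 98.0, 63.8 and 84.6 FPKM in the Ras-induced libraries (log2 difference 0.32, adjusted p = 0.215 with limma). Its groups overlapped, since Ras-induced library 2 lay within the control range. GABARAPL1 had 20.4, 19.4 and 13.2 FPKM in the control and 24.2, 13.6 and 13.2 FPKM in the Ras-induced libraries, so that the groups overlapped and only Ras-induced library 1 lay above the controls (interval −0.71 to 0.55). For GABARAP, 65.3% of the 50-base windows of the transcript also occur in other annotated genes, among them a readthrough transcript. Its level is therefore uncertain, and by how much was not tested.

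The summed level of the 5 ATG8 genes was 214.2, 211.5 and 186.1 FPKM in the control and 278.1, 226.1 and 254.6 FPKM in the Ras-induced libraries, without overlap (203.9 ± 15.5 against 252.9 ± 26.1 FPKM). MAP1LC3A made up 8.37% ± 1.32 of that sum in the control libraries and 3.01% ± 0.508 in the Ras-induced libraries, again without overlap. The shares of the other four overlapped between the groups. LC3A relative to LC3B went from 0.375 ± 0.0524 to 0.121 ± 0.0235. These sums and shares, also chosen after the values were seen, are descriptions without a test.

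**Figure D3:**
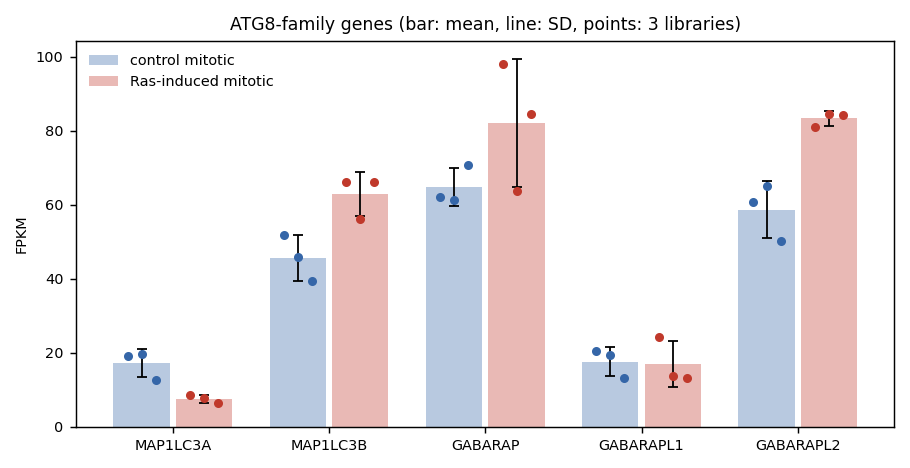
FPKM of the 5 ATG8 genes in control mitotic (blue) and Ras-induced mitotic (red) cells, with bars from 0 to the mean of 3 libraries, lines for the SD and a point per library. The groups lie apart for MAP1LC3A (12.8 to 19.7 against 6.32 to 8.51 FPKM), MAP1LC3B and GABARAPL2, and overlap for GABARAP and GABARAPL1.

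The ubiquitin-binding cargo receptors also divided. SQSTM1 (p62, chr5:179233398-179265078, plus strand), the most abundant of them, had 123.3, 94.6 and 105.5 FPKM in the control and 188.4, 151.5 and 153.1 FPKM in the Ras-induced libraries. All Ras-induced libraries were above all control libraries. The mean rose from 107.8 ± 14.5 to 164.3 ± 20.8 FPKM, with a log2 difference of 0.60 (interval 0.29 to 0.92, adjusted p = 0.0269 with limma). The call held in only 1 of the 6 leave-outs, reaching 0.0814 without control library 2, and was lost after quantile normalization (0.0515). SQSTM1 shares 53.4% of the 50-base windows of its longest coding transcript with the overlapping gene MRNIP, listed as C5orf45, whose values moved alike (50.7 ± 3.28 to 80.5 ± 10.1 FPKM, log2 difference 0.65).

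OPTN (optineurin, a receptor for damaged mitochondria and bacteria, chr10:13141449-13180308, plus strand) had 64.7, 55.8 and 56.9 FPKM in the control and 43.8, 38.5 and 35.1 FPKM in the Ras-induced libraries. The mean fell from 59.1 ± 4.87 to 39.2 ± 4.35 FPKM (log2 difference −0.59, interval −0.84 to −0.33, adjusted p = 0.0159 with limma), and the call was lost without control library 1 or Ras-induced library 3 (adjusted p up to 0.0558). The ratio of SQSTM1 to OPTN within a library was 1.82 ± 0.109 in control and 4.198 ± 0.232 in Ras-induced cells. The other receptors were not altered. CALCOCO2 (NDP52), which binds coated bacteria and damaged mitochondria, had a difference of −0.23 (adjusted p = 0.272 with limma), its relative TAX1BP1 of 0.24 (0.131) and NBR1, which works with p62 on protein aggregates, of 0.27 (0.206).

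**Figure D4:**
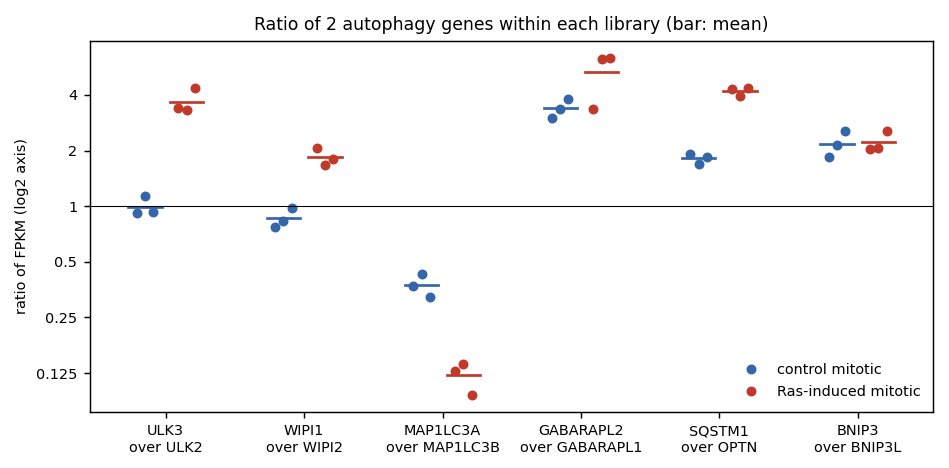
Ratio of FPKM within each library for 6 pairs of related autophagy genes, on a log2 axis, with a point for each control mitotic (blue) and Ras-induced mitotic (red) library and a bar at each mean. ULK3 over ULK2 is 0.917 to 1.13 in control and 3.30 to 4.35 in Ras-induced libraries, while BNIP3 over BNIP3L (1.84 to 2.55 against 2.04 to 2.55) and GABARAPL2 over GABARAPL1 overlap.

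The mitophagy receptors BNIP3 and BNIP3L (NIX), outer mitochondrial membrane proteins that bind ATG8 proteins directly and are known hypoxia-responsive genes, had large differences with a wide spread. BNIP3 (chr10:133781188-133795471, minus strand, promoter given above) had 97.6, 85.7 and 120.4 FPKM in the control and 167.1, 119.5 and 178.7 FPKM in the Ras-induced libraries. Ras-induced library 2 lay just under control library 3, so the groups overlapped. The log2 difference was 0.60 (interval 0.16 to 1.05), like that of SQSTM1, but the adjusted p was 0.0716 with limma. BNIP3L had 53.1, 40.2 and 47.3 FPKM in the control and 82.0, 57.6 and 70.1 FPKM in the Ras-induced libraries, without overlap (log2 difference 0.56, interval 0.19 to 0.94, adjusted p = 0.0542 with limma). Ras-induced library 2 was the lowest of its group for both, and without it both were altered (0.0363 and 0.042). Their ratio stayed at 2.17 ± 0.357 in control and 2.22 ± 0.285 in Ras-induced libraries. A pseudogene, BNIP3P1, shares 11.0% of the 50-base windows of BNIP3 and was listed at 12.3 to 25.6 FPKM. DRAM1, a lysosomal membrane protein induced by p53, was the remaining member, at 30.3, 26.5 and 28.9 FPKM in the control and 26.1, 23.0 and 24.5 FPKM in the Ras-induced libraries. Its Ras-induced libraries all lay below the control libraries, and the difference of −0.21 did not pass the test (interval −0.42 to 0.00, adjusted p = 0.149 with limma).

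The 30 members that were not altered had differences between −0.23 and 0.60, of which 23 were above 0. In 14 of them the Ras-induced libraries all lay above the control libraries, in 1 they all lay below, and in 15 the groups overlapped (27.1% of all tested genes, altered ones included, lay above and 12.8% below). Of these 30, 5 had an adjusted p between 0.05 and 0.1 with limma (ATG4B, ATG4D, ATG16L1, BNIP3 and BNIP3L). Without a multiple-testing adjustment, 19 of the 40 members had a p under 0.05 with limma, where 33.6% of all tested genes did.

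Of 15 tested genes of mTORC1 and AMPK nutrient control, upstream of the autophagy machinery, 1 was altered, where 16.7% of all tested genes were. An unadjusted p under 0.05 was reached by 4 of them in limma, and by 33.6% of all tested genes. The altered gene was AKT1S1 (PRAS40), an mTORC1 inhibitor, which rose from 28.2 ± 2.98 to 39.6 ± 1.22 FPKM (log2 difference 0.48, adjusted p = 0.021 with limma), and lost its call in 4 of the 6 leave-outs. RHEB, the GTPase that activates mTORC1 and the most abundant gene of that list, had 201.3, 179.9 and 139.8 FPKM in the control and 120.3, 129.9 and 118.4 FPKM in the Ras-induced libraries, with a difference of −0.48 (adjusted p = 0.0594 with limma). It was called lower after quantile normalization (0.0307) and upper-quartile scaling (0.025). Of the transcription factors known to regulate autophagy and lysosome genes, activators and the repressor ZKSCAN3, 4 were tested. None was altered by limma (16.7% of all tested genes were), and 0 had an unadjusted p under 0.05 (33.6% did). TFE3, the most abundant, stood at 56.7 ± 9.77 and 57.5 ± 4.501 FPKM. TFEB, named here after its values were seen, fell just under the filter of the main fit and was not tested there. It had 0.341, 0.673 and 0.400 FPKM in the control and 1.07, 2.14 and 1.31 FPKM in the Ras-induced libraries, without overlap.

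Downstream of the autophagosome, 2 of 13 tested fusion genes were called higher and 0 lower (11.0% and 5.67% of all tested genes), and the calls depended on the scaling. They were the late endosomal GTPase RAB7A, which went from 186.2 ± 12.03 to 243.9 ± 9.27 FPKM (log2 difference 0.39, adjusted p = 0.0213 with limma), and VPS18, a subunit of the tethering complexes (0.42, adjusted p = 0.0369 with limma). The VPS18 call was lost with every single library left out and the RAB7A call in 4 of the 6 leave-outs. After quantile normalization neither was called (RAB7A 0.0518, VPS18 0.0687 with limma) and EPG5, a tether of autophagosomes named here after its values were seen, was called lower (−0.47, adjusted p = 0.0349 with limma). After upper-quartile scaling 1 gene was higher (RAB7A) and 1 lower (EPG5). Of 12 lysosomal genes, 5 rose and 0 fell (11.0% and 5.67% of all tested genes did), and the list's median difference was 0.09. That median was 0.18 without control library 3, 0.037 without control library 2 and 0.033 without Ras-induced library 2. Only CTSL and NEU1 were also called after quantile and upper-quartile scaling (7.46% and 6.58% of all tested genes rose there), and single leave-outs gave 1 to 5 higher genes. The cysteine protease gene CTSL had the largest difference of them, from 110.7 ± 15.7 to 200.9 ± 19.4 FPKM (0.86, adjusted p = 0.00841 with limma), followed by NEU1, a sialidase (0.68, adjusted p = 0.0153 with limma), and ATP6V0D1, a proton pump subunit (0.41, adjusted p = 0.0214 with limma, but 0.0705 and 0.0701 under the other scalings). CTSB, the most abundant, rose from 634.7 ± 67.6 to 830.0 ± 14.9 FPKM (0.39, adjusted p = 0.0353 with limma), a call lost in 5 of the 6 leave-outs and under both scalings (0.153 and 0.123).

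Further family members and receptors of autophagy outside the member list held no altered gene. Over all tested genes 16.7% were altered and 33.6% had an unadjusted p under 0.05 in limma. Of 8 tested further family members and cofactors, 0 were altered by limma (2 at an unadjusted p under 0.05), with a median of 0.14 (0.016 without control library 3 and 0.21 without control library 1), and their most abundant gene, the WIPI relative WDR45B, had a difference of 0.12. The largest difference among these 8, 0.47 for the lipid scramblase TMEM41B, named after its values were seen, missed the threshold (adjusted p = 0.052 with limma) and passed it in 4 of 13 alternatives. Of 11 tested further receptors and mitophagy genes, 0 were altered (3 at an unadjusted p under 0.05), with a median of 0.17, and the most abundant, PHB2, went from 144.2 ± 4.70 to 175.0 ± 20.0 FPKM (log2 difference 0.27, adjusted p = 0.104 with limma). Hypoxia-responsive genes, to which BNIP3 and BNIP3L are often counted, were represented by 9 tested genes that are not members. Of these 4 rose and 0 fell (11.0% and 5.67% of all tested genes did), with a median of 0.31 (0.60 without control library 3 and 0.24 without control library 2). After quantile or upper-quartile scaling 2 of them, VEGFA and ANKRD37, were called, and single leave-outs gave 1 to 4. The glucose transporter gene SLC2A1, named after its values were seen, had the lowest difference of the list, −0.30 (adjusted p = 0.259 with limma). VEGFA, an angiogenic factor, rose from 10.4 ± 1.71 to 32.0 ± 7.16 FPKM (1.52, adjusted p = 0.00519 with limma), NDRG1, a stress-responsive gene, had a difference of 0.99 at the threshold (adjusted p = 0.0494 with limma), and ANKRD37, a known target of hypoxia-inducible factor, of 0.79 (adjusted p = 0.0163 with limma).

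**Figure D5:**
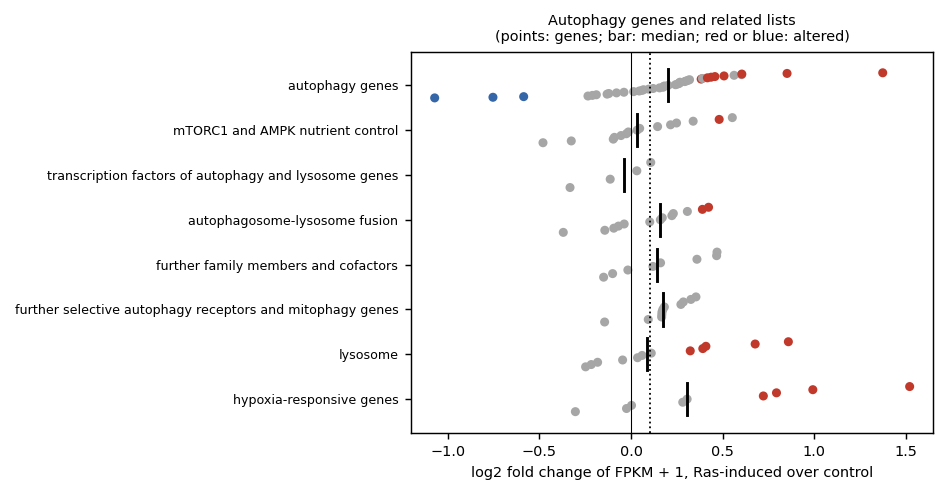
Log2 differences between Ras-induced and control mitotic cells for the tested genes of the autophagy list, here with ATG101, and of 7 related lists, 1 point per gene on the x axis, red or blue where limma called the gene higher or lower and grey where it did not, with a bar at each list's median and a dotted line at the all-gene median of 0.10. The median is 0.20 for the autophagy genes, 0.03 for nutrient control, 0.09 for lysosomal genes and 0.31 for hypoxia-responsive genes.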

How the data were processed

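Sequencing was done on polyadenylated RNA with a TruSeq RNA v2 kit, which does not mark strand, on a NextSeq500. The authors trimmed reads (Trim Galore 0.3.0 per the submitters' processing notes), aligned them to hg19 with TopHat2 and Ensembl junctions, and computed gene FPKM with Cufflinks. The deposited FPKM table held 63129 genes, of which 120 with surplus values, none of them a member, were left out, and 18 unnamed columns were not used. Columns name the group and a number but not the sample. A table of the authors' own Cuffdiff comparison (fold changes and p-values) was not used.

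Values were transformed to log2(FPKM + 1), and limma 3.58.1 in R 4.3.3 (lmFit, eBayes with trend, no covariate, two-sided) was fitted to the 13993 genes that averaged 1 FPKM or more, with Benjamini-Hochberg adjustment over all of them. The script was tested on simulated data. The tables give no read counts, so depth was compared only through the steps of low values. According to the methods the experiment was repeated independently, while the labels do not say so. Alternatives were another pseudocount, other filters, quantile and upper-quartile scaling, no trend, a replicate block, a minimum change and each library left out. The members, lists and named genes were chosen with earlier results of these data known. Per-library values are given for altered members and the most abundant of each of 8 roles, and also for ULK1, WIPI2, GABARAPL1 and BNIP3L. Of each related list up to 3 altered genes of largest change and the most abundant gene are named, besides those said to be named after their values were seen. Where a symbol was repeated, as for NEU1, TFE3 and PHB2, the row of highest mean was used. Shared sequence was computed from GENCODE transcripts on GRCh37 in windows of 50 bases, and promoters from RefSeq.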

Additional observations from a re-analysis of the deposited data

How the results depend on the processing

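The number of altered members, 10, rests on small margins. A pseudocount of 0.1 gave 11 of 40 altered members (17.5% of all tested genes), a minimum of 5 FPKM gave 12 of 37, without ULK2 (21.4%), no trend 9 (14.4%) and upper-quartile scaling 7 (14.5%). Testing every gene gave 4 members (2 higher), and 1518 altered genes in all (5.17%) against 2336. Quantile normalization gave 6 members, 3 of them higher, and upper-quartile scaling 4 higher. The member median fell from 0.19 to 0.10 and 0.089 under these scalings, close to the fall of the all-gene median. A change of at least 1 left 2 members, 1 higher and 1 lower, and 548 genes in all. Leaving out single libraries gave 3 to 8 altered members, 2 to 5 higher and 0 to 3 lower, a median of 0.17 to 0.24, and 998 to 1956 altered genes in all. The fewest members remained without control library 1 (3) and without Ras-induced library 3 (3), and 5 remained without control library 2. None of the lower members passed limma without control library 1, although 3 had an unadjusted p under 0.05. None of the 10 altered members changed sign in any alternative. Genes near 0 did: under quantile normalization and upper-quartile scaling ATG10 had −0.051 and −0.055, ATG14 −0.016 and −0.022, ATG2B −0.022 and −0.031, RB1CC1 −0.0065 and −0.0098, TFE3 −0.061 and −0.077, and ULK1 −0.081 and −0.088. With single libraries left out, values ran from −0.053 to 0.15 for ATG10, −0.028 to 0.14 for ATG2B, −0.35 to 0.065 for GABARAPL1, −0.12 to 0.11 for TFE3, and −0.10 to 0.14 for ULK1. The cause was not tested.

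With the column number as a replicate block, 12 members (9 higher) and 2310 genes in all were altered. BNIP3 (adjusted p = 0.019 with limma), BNIP3L (0.0146) and ATG4D (0.0449) were then included, and MAP1LC3B (0.0575) was not. Deviations of libraries with the same number correlated at −0.0027, 0.043 and 0.048. Libraries numbered 2 and 3 correlated best with their own number, and those numbered 1 did not. The main fit did not take the numbers as pairs, and whether they are pairs was not settled.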
